A study of Mus musculus with 15 samples.

Results

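Taurine is a sulfur-containing amino acid that cells either import or make from cysteine. Import runs mainly through TauT, the sodium- and chloride-coupled transporter encoded by Slc6a6, while the carriers encoded by Slc6a13, Slc36a1 and Slc16a6 also accept taurine among other substrates. In the main synthetic route, Cdo1 oxidizes cysteine to cysteine sulfinate, Csad decarboxylates it to hypotaurine, and flavin monooxygenases such as Fmo1 oxidize hypotaurine to taurine. Ado reaches hypotaurine from cysteamine, a breakdown product of coenzyme A, and Gadl1 is a decarboxylase related to Csad.

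Expression of these 9 genes, 4 carriers and 5 enzymes, was determined in bone marrow mesenchymal stromal cells (MSCs) with and without TauT. They were taken by symbol from the 56832 genes of a bulk RNA-sequencing count table, and all 9 were present. There were 15 libraries from mice aged 16 weeks. Under the male label 4 were TauT+/+ and 4 TauT-/-, and under the female label 3 were TauT+/+ and 4 TauT-/-. The mice were on a C57BL/6J background, and the study describes its TauT-/- mice as a global TauT knockout. Long bone marrow was cultured and sorted magnetically for CD45- cells, and the study's methods name depletion by CD45, Ter119 and CD31 beside flow sorting. The labels do not say whether the samples of a group came from separate animals, so p-values measure the spread between these samples. Levels are CPM, reads of a gene after all libraries were brought to the same size by TMM scaling. Genotypes were compared by edgeR's quasi-likelihood test with the sex label in the model and Benjamini-Hochberg adjustment over the 17204 genes that passed the filter on low counts. An adjusted p under 0.05 was the threshold.

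Several libraries went against their labels or stood close to one another. In 3 libraries, TauT+/+ male 1, TauT-/- male 1 and TauT+/+ female 3, the sex-linked genes went against the sex label. TauT-/- male 1 and TauT-/- female 1 differed by a robust SD of 0.104 in log2 ratios over genes with at least 100 counts in both, and TauT+/+ male 1 and TauT+/+ female 1 by 0.115, whereas the next closest of the 105 pairs of libraries, TauT+/+ male 3 and TauT-/- male 3, had 0.289. Total counts per library ran from 69764291 to 101575071 under the male label and from 12761107 to 20781070 under the female label, so depth and sex label cannot be told apart. Among marker lists, the summed level of 12 stromal genes was 28120 to 47448 CPM in TauT+/+ and 6305 to 40381 CPM in TauT-/- libraries. Of the 12, 10 were lower and 2 higher in TauT-/- libraries, none past the threshold. The summed level of 16 macrophage genes was 1453 to 9942 and 6920 to 21471 CPM, and none was at 0 in every library. All 16 were higher in TauT-/- libraries, where 8316 of all 17204 genes tested were. Of the 16, 1 was called, Cd68, where 0.546% of all genes were called higher. Ptprc, which encodes CD45, had 27.9 to 179 CPM in TauT+/+ and 114 to 370 CPM in TauT-/- libraries, although the cells were sorted as CD45-. The summed level of 8 adipocyte genes was 325 to 3979 and 226 to 1702 CPM. All 8 were lower in TauT-/- libraries, where 8888 of all 17204 genes tested were, and none passed the threshold.

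To show what lies upstream of a gene whose TauT-/- levels all lay within the TauT+/+ range and of the carrier closest to silence in TauT+/+ MSCs, the promoters of Ado and Slc6a13 are given. Of the 9 genes, 5 matched the RefSeq table of promoters (GRCm38.p6), Slc6a13, Slc36a1, Csad, Ado and Gadl1. Slc6a6, Slc16a6, Cdo1 and Fmo1 are named only. Each sequence covers 300 bases around the annotated start, 5′ to 3′ on the strand of the gene, with CG dinucleotides in capitals. The Ado promoter is at chr10:67548906-67549205 on the minus strand, and the first of the 3 Slc6a13 promoters at chr6:121300038-121300337 on the plus strand.
Ado: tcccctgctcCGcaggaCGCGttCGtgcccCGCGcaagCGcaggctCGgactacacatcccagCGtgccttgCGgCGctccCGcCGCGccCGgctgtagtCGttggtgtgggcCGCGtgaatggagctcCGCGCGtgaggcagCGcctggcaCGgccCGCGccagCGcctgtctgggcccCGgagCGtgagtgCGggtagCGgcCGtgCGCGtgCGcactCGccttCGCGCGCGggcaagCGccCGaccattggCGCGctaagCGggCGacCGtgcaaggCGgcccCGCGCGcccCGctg
Slc6a13: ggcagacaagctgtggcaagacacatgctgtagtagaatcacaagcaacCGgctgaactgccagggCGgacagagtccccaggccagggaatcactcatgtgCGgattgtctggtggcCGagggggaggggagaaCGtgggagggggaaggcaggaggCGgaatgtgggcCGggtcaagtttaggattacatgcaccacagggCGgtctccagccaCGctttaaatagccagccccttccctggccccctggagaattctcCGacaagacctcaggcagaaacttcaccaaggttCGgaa
The Ado window held 51 CG dinucleotides, more than 99.3% of the 32851 promoters in the table, against 11 in the Slc6a13 window, more than 58.6%. Slc36a1 had 15, the first of the 2 Csad entries 6 and Gadl1 4, and the median promoter had 7. These are counts of letters and were not tested against expression.

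Slc6a6 was by far the most abundant of the 9 genes in both genotypes. Per kilobase of its canonical transcript, it had a median of 277 CPM (range 95.6 to 419) over the 7 TauT+/+ libraries and 121 CPM (64.9 to 246) over the 8 TauT-/- libraries. Its lowest TauT+/+ library was above the highest library of each of the other 8 genes. Among the TauT+/+ libraries, Csad followed with a median of 16.3 CPM per kb, then Ado with 9.68, Slc36a1 with 9.03 and Cdo1 with 8.86. The ranges of these 4 overlapped, and with all annotated exons as the length the order became Ado, Cdo1, Slc36a1 and Csad. Fmo1 had a median of 4.40 CPM per kb with a range of 0.738 to 18.8, and Slc16a6 3.47 with a range of 1.79 to 4.64. Slc6a13 had a median of 0.0286 CPM per kb, and the Gadl1 median was 0. In TauT-/- libraries the first 4 ranks by canonical transcript were the same, and Cdo1, with a median of 1.86 CPM per kb, came below Slc16a6 with 3.69.

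**Figure D1:**
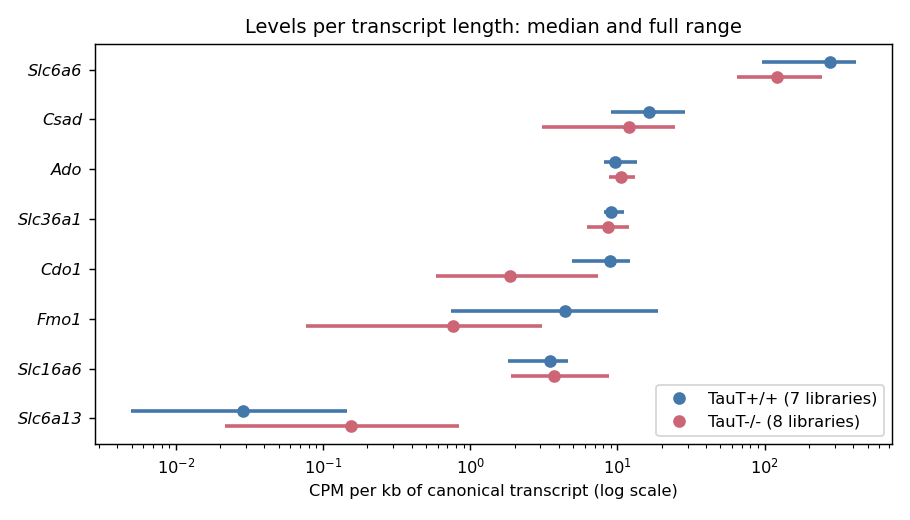
Levels per kilobase of canonical transcript on a log axis, with the median (point) and full range (line) over 7 TauT+/+ (blue) and 8 TauT-/- (red) libraries. Slc6a6 lies above every other gene, with medians of 277 and 121 CPM per kb, and Gadl1 is left out because its TauT+/+ median is 0.

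No gene of the 9 passed the edgeR threshold between genotypes. Of the 8 that were tested, 0 were called lower, where 0.75% of all genes tested were, and 0 higher, where 0.546% were. Gadl1 was removed by the filter on low counts. At an unadjusted p under 0.05, Slc6a6, Cdo1 and Fmo1 were lower, against 13% of all genes, and Slc6a13 was higher, against 10.6%. DESeq2 called Cdo1 and Fmo1 lower, where it called 6.31% of the 18045 genes it gave an adjusted p, and Slc6a13 higher, where it called 5.28%. limma's voom with sample quality weights called Slc6a6 and Cdo1 lower, where it called 4.12%. These fits and that of edgeR counted the near-identical libraries of the same genotype as separate samples, so their p-values can be too small. The median log2 fold change of the 8 tested genes was −0.31, with 5 of them negative, and that of all 17204 genes was −0.02.

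**Figure D2:**
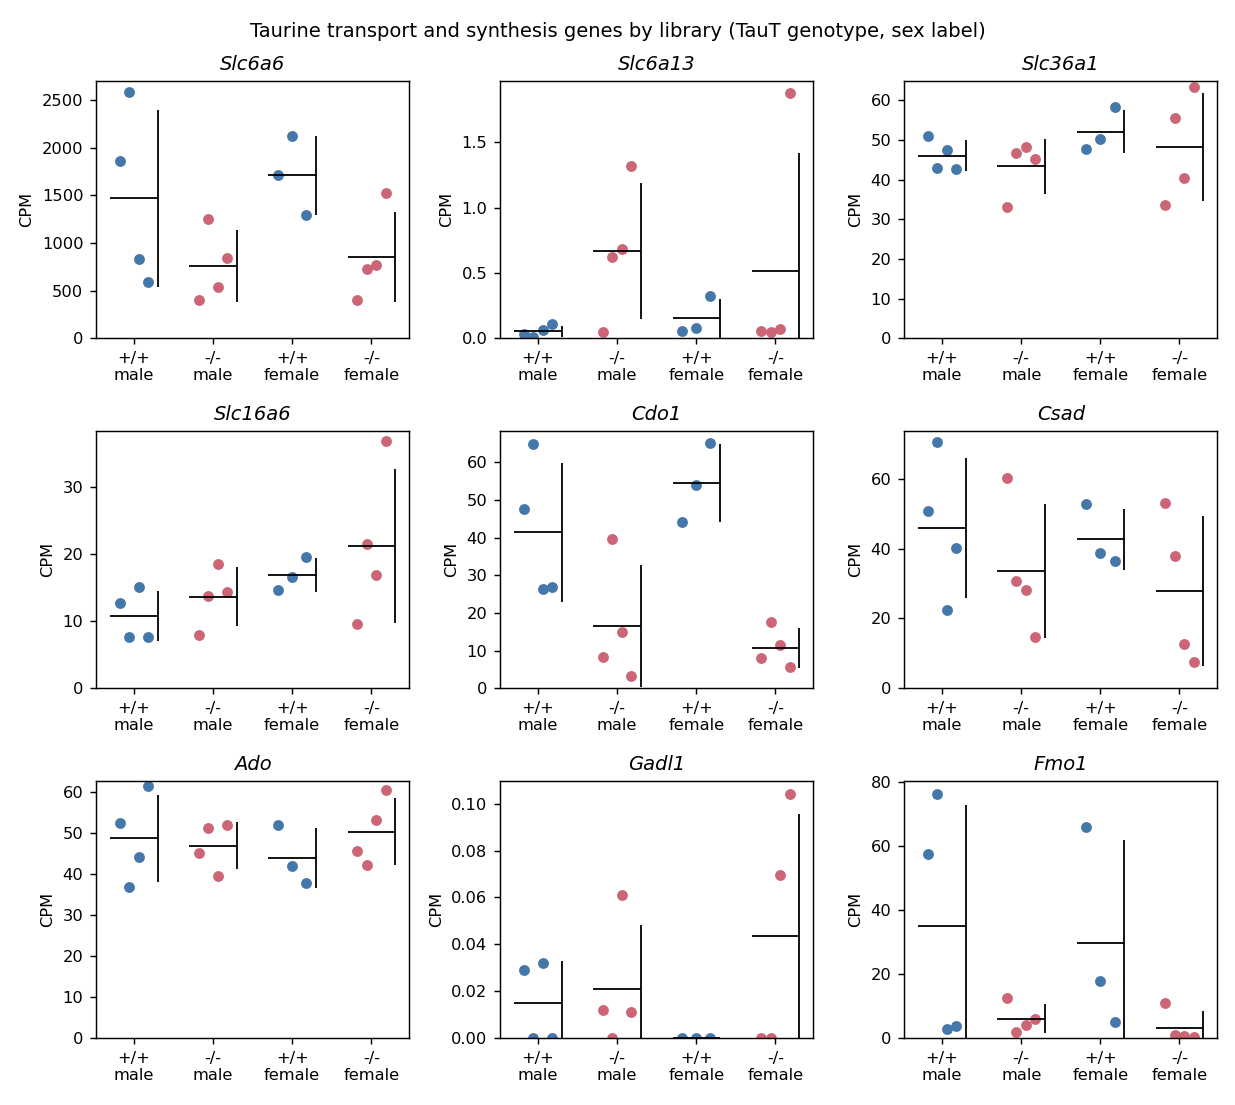
CPM of each gene in every library by TauT genotype (+/+ blue, -/- red) and sex label, on linear axes from 0 that differ between panels. Horizontal lines are group means, and vertical lines run 1 SD to either side, cut at 0. Cdo1 is at 3.14 to 17.7 CPM in 7 of the 8 TauT-/- libraries, below the lowest TauT+/+ library at 26.3 CPM. These 7 include the near-identical TauT-/- male 1 and female 1.

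Among the carriers, Slc6a6 (ENSMUSG00000030096, chromosome 6 of GRCm39, 91660573 to 91736047, plus strand) is the gene that was targeted. Its transcript remained abundant in each library labelled TauT-/-, at 401 to 1521 CPM (median 747) against 592 to 2591 CPM (median 1712) in TauT+/+ libraries. The counts are per whole gene and the deleted part of the allele is not given in the sources used here, so the level does not check the genotype labels, and TauT-/- is the label of a library throughout. In 3 of the 8 TauT-/- libraries, male 1, male 3 and female 1, it was below every TauT+/+ library, and the genotypes overlapped in the other 5. TauT-/- male 1 and female 1 are the near-identical pair. The log2 fold change was −0.97 (SE 0.36, edgeR adjusted p = 0.125), with −0.95 (SE 0.51) under the male and −1.001 (SE 0.54) under the female label. Without TauT+/+ male 1 and TauT-/- male 1, it was −0.82 (SE 0.39, edgeR adjusted p = 0.229). The voom fit gave −1.27 with an adjusted p of 0.0246.

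Slc6a6 accounted for nearly all of the carrier transcript per length. Of the summed CPM per kb of the 4 carriers, it made up 90.6% to 97.7% (median 95.7%) in TauT+/+ and 86.3% to 94.2% (median 90.2%) in TauT-/- libraries. The other 3 carriers together had 9.91 to 15.8 CPM per kb (mean 12.4 ± 2.04, SD, n = 7) and 8.13 to 21.5 CPM per kb (mean 13.04 ± 4.23, SD, n = 8). These sums overlapped between the genotypes, and the highest was TauT-/- female 4.

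Slc36a1 (ENSMUSG00000020261, chromosome 11, 55095146 to 55127156, plus strand), a proton-coupled amino acid carrier found on lysosomes and the cell surface, was among the steadiest of the 9 genes. It had 42.7 to 58.4 CPM (median 47.8) in TauT+/+ and 33.0 to 63.3 CPM (median 46.0) in TauT-/- libraries. The lowest libraries were TauT-/- male 1 and female 1, the near-identical pair, at 33.0 and 33.7 CPM. The log2 fold change was −0.10 (SE 0.13, edgeR adjusted p = 0.686).

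Slc16a6 (ENSMUSG00000041920, chromosome 11, 109341680 to 109365928, minus strand), a member of the monocarboxylate transporter family, had 7.58 to 19.6 CPM (median 14.7) in TauT+/+ and 7.96 to 36.9 CPM (median 15.6) in TauT-/- libraries. TauT-/- female 4 was highest and the genotypes overlapped, with a log2 fold change of 0.33 (SE 0.26, edgeR adjusted p = 0.461). Its level went with that of the macrophage list across the 15 libraries (Pearson r = 0.78 of log2 values, a description over libraries that share their scaling). With the mean of that list as a covariate the log2 fold change was −0.23 (SE 0.29). In these bulk samples fewer cells of a type and less RNA per cell cannot be told apart. Slc16a6 overlaps Amz2 by 5763 bases and Arsg by 2825 bases, both on the plus strand, with log2 fold changes of −0.25 (SE 0.16) and −0.35 (SE 0.23). The counts were made by strand, but whether the library kit keeps the strand is not given in the sources used here, so reads in the overlaps are uncertain.

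Slc6a13 (ENSMUSG00000030108, chromosome 6, 121277186 to 121316121, plus strand), a carrier of GABA, betaine and taurine, was near the limit of detection. TauT+/+ male libraries 1 to 4 had 0.0291, 0.0111, 0.0639 and 0.108 CPM, and TauT+/+ female libraries 1 to 3 had 0.0575, 0.0765 and 0.322 CPM. These values rest on 1 to 8 reads per library and 26 in all. In TauT-/- male libraries 1 to 4 it had 0.0490, 0.620, 0.682 and 1.32 CPM, and in TauT-/- female libraries 1 to 4 it had 0.0524, 0.0480, 0.0695 and 1.88 CPM.
Thus 4 of the 8 TauT-/- libraries, male 2, 3 and 4 and female 4, were above every TauT+/+ library, with 36 to 116 reads each, and the other 4 lay within the TauT+/+ range. In 4 of the 7 TauT+/+ and 3 of the 8 TauT-/- libraries there were at most 3 reads, which corresponds to 0.0305 to 0.0437 CPM in male-labelled and 0.138 to 0.229 CPM in female-labelled libraries. The log2 fold change was 2.81 (SE 0.94, edgeR adjusted p = 0.104) and was called by DESeq2 alone (2.81, adjusted p = 0.0238). With voom it was 1.60 (adjusted p = 0.2296), and without TauT+/+ female 3 it was 3.48 (edgeR adjusted p = 0.107). Under the male label it was 3.61 (SE 1.22) and under the female label 1.67 (SE 1.39). The library with the highest level, TauT-/- female 4, also had the highest macrophage sum, 21471 CPM, and the lowest stromal sum, 6305 CPM. With the macrophage list as a covariate the log2 fold change was 0.67 (SE 1.59, edgeR adjusted p = 0.929). Without TauT+/+ male 1 and TauT-/- male 1, Slc6a13 did not pass the filter on low counts.

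Of the enzymes, Cdo1 (ENSMUSG00000033022, chromosome 18, 46842652 to 46861627, minus strand), which opens the route from cysteine, differed most clearly between the genotypes. TauT+/+ male libraries 1 to 4 had 47.6, 65.0, 26.3 and 26.9 CPM, and TauT+/+ female libraries 1 to 3 had 44.3, 54.1 and 65.1 CPM. TauT-/- male libraries 1 to 4 had 8.42, 39.5, 15.1 and 3.14 CPM, and TauT-/- female libraries 1 to 4 had 7.96, 17.7, 11.5 and 5.58 CPM. Under the female label the genotypes did not overlap, and over all libraries 7 of the 8 TauT-/- libraries were below every TauT+/+ library, with TauT-/- male 2 as the exception. These 7 include the near-identical TauT-/- male 1 and female 1.
Means were 47.0 ± 16.03 CPM (SD) over the 7 TauT+/+ and 13.6 ± 11.5 CPM (SD) over the 8 TauT-/- libraries, and the log2 fold change was −1.80 (SE 0.45, edgeR adjusted p = 0.0597), a 3.48-fold lower level that missed the threshold. DESeq2 and voom, on the same libraries with the near-identical pairs kept, gave −1.79 each, with adjusted p of 0.00344 and 0.0283. The log2 fold change was −1.32 (SE 0.60) under the male and −2.35 (SE 0.66) under the female label. Without TauT-/- male 2 it was −2.29 and passed the threshold (edgeR adjusted p = 0.0191), as it did without TauT+/+ male 3 (−1.93, 0.0308). It was −1.75 (edgeR adjusted p = 0.0991) without TauT+/+ male 1 and TauT-/- male 1, and −1.64 (SE 0.61, adjusted p = 0.422) with the macrophage covariate. Across the libraries Cdo1 went with the stromal list (Pearson r = 0.64 of log2 values) and ran opposite to the macrophage list (r = −0.52). These values describe libraries that share their scaling. The part of the marker lists in the Cdo1 difference was not tested.

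Ado (ENSMUSG00000057134, chromosome 10, 67380341 to 67384898, minus strand), the thiol dioxygenase that acts on cysteamine, had 37.0 to 61.4 CPM (median 44.1) in TauT+/+ and 39.7 to 60.4 CPM (median 48.4) in TauT-/- libraries. Every TauT-/- library lay within the TauT+/+ range, and the log2 fold change was 0.06 (SE 0.13, edgeR adjusted p = 0.808). Of the summed CPM per kb of the 2 thiol dioxygenases, Cdo1 made up 27.1% to 59.9% (median 43.5%) in TauT+/+ and 4.89% to 39.6% (median 14.6%) in TauT-/- libraries. The ranges overlapped through TauT-/- male 2 with 39.6% and TauT+/+ male 3 and 4 with 33.6% and 27.1%.

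Csad (ENSMUSG00000023044, chromosome 15, 102085432 to 102113498, minus strand), the cysteine sulfinate decarboxylase, varied widely within each genotype. TauT+/+ male libraries 1 to 4 had 50.8, 70.4, 22.3 and 40.1 CPM, and TauT+/+ female libraries 1 to 3 had 52.6, 38.9 and 36.4 CPM. TauT-/- male libraries 1 to 4 had 60.3, 30.8, 28.0 and 14.8 CPM, and TauT-/- female libraries 1 to 4 had 53.1, 37.9, 12.6 and 7.61 CPM. The near-identical libraries TauT-/- male 1 and female 1 were the highest of the TauT-/- libraries, 3 of the 8 were below every TauT+/+ library, and the genotypes overlapped.
The log2 fold change was −0.53 (SE 0.39, edgeR adjusted p = 0.434). Across libraries Csad ran opposite to the macrophage list (Pearson r = −0.70) and with the stromal list (r = 0.74), again a description over 15 libraries that share their scaling. With the macrophage covariate its log2 fold change was 0.01 (SE 0.43). Csad overlaps Zfp740, on the plus strand, by 2089 bases, and the Zfp740 log2 fold change was −0.25 (SE 0.11, edgeR adjusted p = 0.196).

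Fmo1 (ENSMUSG00000040181, chromosome 1, 162655471 to 162694185, minus strand), a flavin monooxygenase that converts hypotaurine to taurine, had the widest spread of the enzymes. TauT+/+ male libraries 1 to 4 had 57.6, 76.3, 2.99 and 3.75 CPM, and TauT+/+ female libraries 1 to 3 had 66.0, 17.8 and 5.21 CPM. TauT-/- male libraries 1 to 4 had 12.5, 1.999, 4.19 and 5.96 CPM, and TauT-/- female libraries 1 to 4 had 11.2, 1.20, 0.764 and 0.313 CPM. Of the 7 TauT+/+ libraries, 4 were above every TauT-/- library and the other 3 lay inside the TauT-/- range. These 4 include the near-identical TauT+/+ male 1 and female 1.
Means were 32.8 ± 32.5 CPM (SD) over the 7 TauT+/+ and 4.76 ± 4.75 CPM (SD) over the 8 TauT-/- libraries, a log2 fold change of −2.80 (SE 0.88, edgeR adjusted p = 0.0907). DESeq2 called it (−2.81, adjusted p = 0.0100), and edgeR did without TauT+/+ male 3 (−3.01, adjusted p = 0.0454). Without TauT-/- female 1 it was −3.54 (edgeR adjusted p = 0.0588), and without TauT+/+ female 1 it was −2.24 (0.199). The 4 TauT+/+ libraries with the most Fmo1 were also those with the highest adipocyte sums, 1475 to 3979 CPM against 325 to 964 CPM in the other 3, and over the 15 libraries the Pearson r of the log2 values was 0.84. TauT-/- male 1 and female 1 had adipocyte sums of 1702 and 1593 CPM, above the 1475 CPM of TauT+/+ female 2, and less Fmo1 than it. The sums do not show that adipocytes were present. The part of these genes' levels in the Fmo1 difference was not tested.

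Gadl1 (ENSMUSG00000056880, chromosome 9, 115713947 to 115905245, plus strand) was at or near 0. It had 0 reads in 5 of 7 TauT+/+ and 3 of 8 TauT-/- libraries, at most 3 and 6 reads in a library, and 5 and 11 reads in all. A difference was not detectable at this depth.

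**Figure D3:**
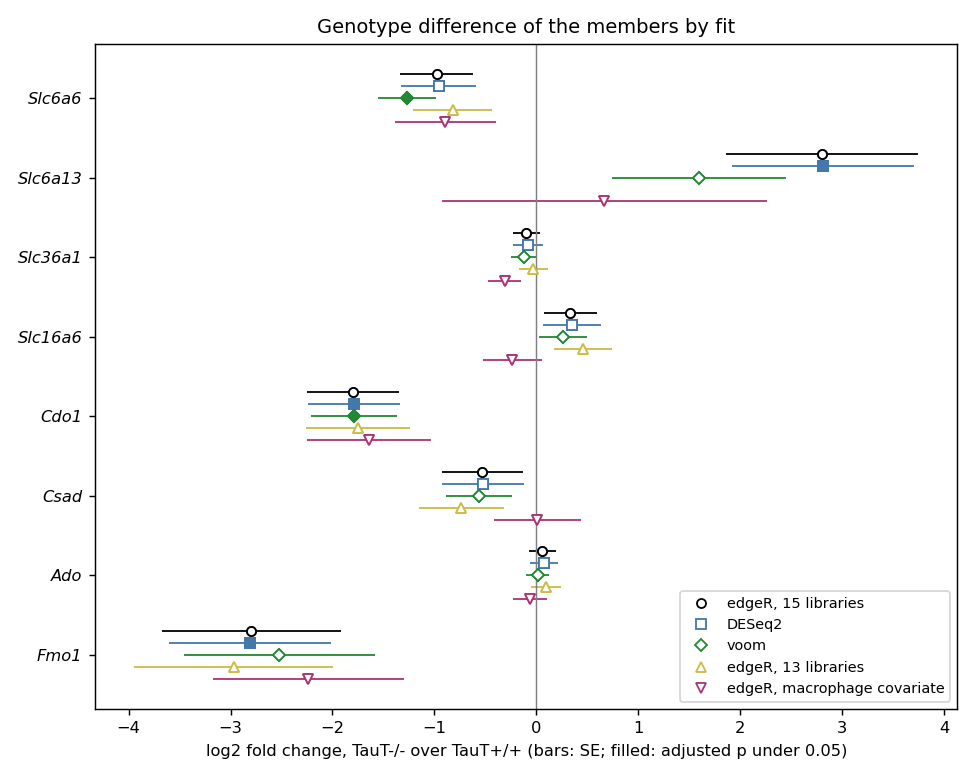
Log2 fold change of the 8 tested genes (TauT-/- over TauT+/+, bars show the SE) by edgeR with 15 libraries, DESeq2, voom, edgeR with 13 libraries (without TauT+/+ male 1 and TauT-/- male 1) and edgeR with the macrophage list as a covariate. Filled symbols passed an adjusted p of 0.05. Cdo1 stays between −1.64 and −1.80 in the 5 fits, while Slc6a13 goes from 2.81 to 0.67 and Slc16a6 and Csad cross 0 with the covariate. The SE of Cdo1 is 0.45 by edgeR with 15 libraries and 0.61 with the covariate, where it did not pass.

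None of the 8 tested genes had a genotype difference that itself differed between the sex labels at the threshold or at an unadjusted p under 0.05, where 1.41% of all genes had one. The smallest unadjusted p of the 8 in this contrast was 0.263, for Cdo1 (edgeR adjusted p = 1.000, difference 1.02, SE 0.88). Among TauT+/+ libraries, male- and female-labelled samples differed at the threshold in none of the 8. The differences were −1.57 (SE 1.41) for Slc6a13, −0.65 (SE 0.40) for Slc16a6 and at most 0.40 in size for the other 6. Neither contrast can decide whether the sexes differ. Near-identical libraries stood under opposite labels, TauT+/+ male 1 and female 1, and TauT-/- male 1 and female 1. Sex-linked expression also contradicted the label of TauT+/+ male 1, TauT-/- male 1 and TauT+/+ female 3. Such libraries can make a difference between labels look smaller.

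**Figure D4:**
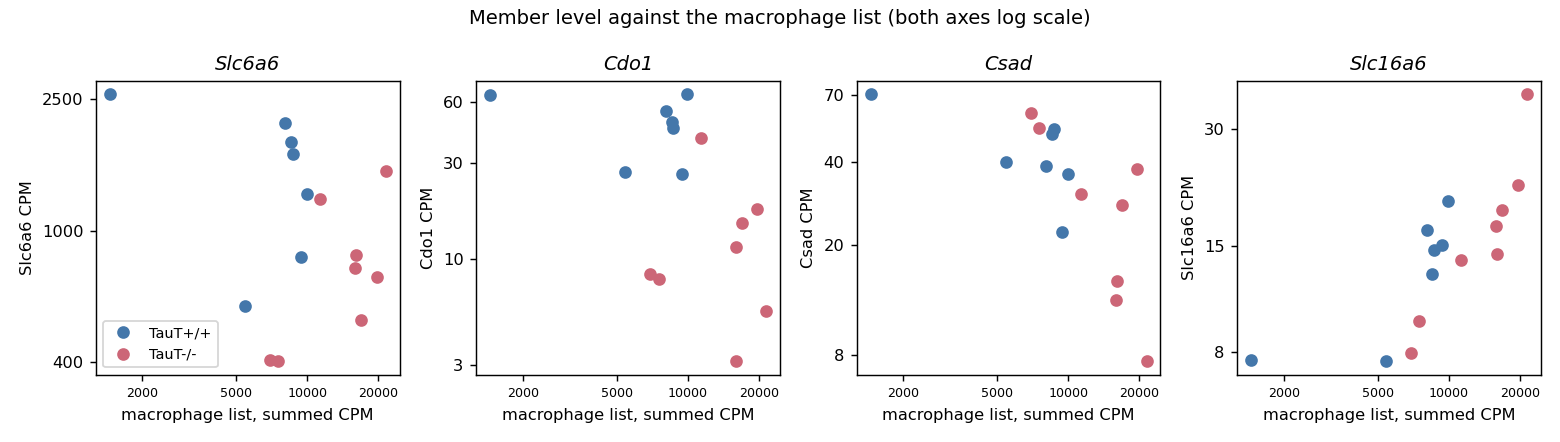
CPM of 4 genes against the summed CPM of the 16 macrophage genes in each library, both on log axes (TauT+/+ blue, TauT-/- red). Slc16a6 increases and Csad decreases along the axis, and in Cdo1 the near-identical TauT-/- libraries male 1 and female 1 sit at 8.42 and 7.96 CPM with a macrophage sum of 6920 and 7519 CPM, inside the TauT+/+ range of that sum.

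The levels of the 8 tested genes did not move as a unit across libraries. Over the 15 libraries, Slc36a1 went with Slc16a6 (Pearson r = 0.79 of log2 values), Csad with Fmo1 (0.76) and Slc6a6 with Cdo1 (0.61), whereas Slc6a13 ran opposite to Csad (−0.73). Ado had its largest correlation in size with Csad, at −0.46. The 5 genes of 13200 compared (mean of at least 1 CPM) whose levels were most like that of Slc6a6 were Junb (r = 0.92), Runx1 (0.91), Gbp5 (0.91), Dcn (0.91) and Vstm4 (0.91). With 13 libraries the same 5 genes held ranks 1 to 5, with r between 0.89 and 0.91. Their log2 fold changes ranged from −0.56 for Runx1 to −2.67 for Dcn, none past the threshold. The correlations were taken across both genotypes. Genes picked as most like 1 of the 8 therefore tend to share its genotype difference, and their fold changes are no separate evidence. Cdo1 was most like Fzd4 (0.96) and Id4 (0.94), of which Id4 was called lower with 15 libraries (log2 fold change −3.06, edgeR adjusted p = 0.0397). Without TauT+/+ male 1 and TauT-/- male 1, edgeR called 0 of all genes lower, with 1760 at an unadjusted p under 0.05. Csad was most like Kcnd1 and Podxl2 (0.97 each), Fmo1 like Zfand1 (0.98) and Ganc (0.96), Slc16a6 like Pgd (0.97) and Slc43a2 (0.95), Slc36a1 like Zfyve28 (0.91) and Zmynd15 (0.90), Ado like B4galt5 (0.90) and Apba3 (0.88), and Slc6a13 like Gngt2 (0.93) and Uqcrq (0.90).

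Genes around the pathway were followed in 9 lists with 74 genes, of which 59 were tested. Fmo2, Slc36a2 and Slc16a9 were called lower and 0 genes higher, where edgeR called 0.75% and 0.546% of all genes, and the median log2 fold change of the 59 was 0.07 against −0.02 over all genes. DESeq2 called 6 lower and 3 higher, where it called 6.31% and 5.28% of all genes. Fmo2, a flavin monooxygenase like Fmo1, had 0.330 to 19.0 CPM (median 10.9) in TauT+/+ and 0.102 to 1.36 CPM (median 0.576) in TauT-/- libraries, and fell by 3.72 on the log2 scale (SE 0.81, edgeR adjusted p = 0.0434). The other tested relatives, Fmo4 and Fmo5, named after their values were seen, had −1.54 (SE 0.63, edgeR adjusted p = 0.161) and −1.33 (SE 0.33, edgeR adjusted p = 0.0561). Slc36a2, a proton-coupled amino acid carrier related to Slc36a1, had 0.277 to 26.8 CPM (median 5.58) and 0 to 0.933 CPM (median 0.146), and fell by 4.71 (SE 1.06, edgeR adjusted p = 0.0464). Slc16a9, a relative of Slc16a6, had 1.75 to 11.5 CPM (median 6.48) and 1.04 to 3.61 CPM (median 1.75), and fell by 1.78 (SE 0.39, edgeR adjusted p = 0.0412). In each of the 3 genes the genotypes overlapped. With each library left out in turn, the calls of Fmo2 and Slc36a2 held in 3 of the 15 fits (without TauT+/+ male 3, TauT+/+ male 4 or TauT-/- female 1) and that of Slc16a9 in 2 (without TauT+/+ male 3 or TauT-/- male 2). Without TauT+/+ male 1 and TauT-/- male 1, the log2 fold changes of the 3 genes were −3.79, −4.85 and −1.49 and their edgeR adjusted p 0.0835, 0.0864 and 0.0921. Slc36a4, another relative of Slc36a1 and named after its value was seen, went the other way. Its log2 fold change was 0.61 (SE 0.18, edgeR adjusted p = 0.0824), and DESeq2 called it higher (adjusted p = 0.0263). The median log2 fold change of the 10 tested SLC36 and SLC16 relatives was 0.097.

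The remaining lists had no call with edgeR. Of 5 tested genes of cysteine uptake, Slc7a11, the cystine antiporter, had the largest log2 fold change (1.38, SE 1.01). Of 8 genes of the methionine cycle and transsulfuration, which supply cysteine, it was Cth (1.16, SE 0.60), and the list's median was 0.01. Of 10 genes for other fates of cysteine and its sulfinate, it was Got1, an aspartate aminotransferase (0.84, SE 0.28). Of 9 genes of coenzyme A synthesis and breakdown it was Vnn3 (1.23, SE 1.31), of 4 genes of taurine conjugation and hydrolysis Ggt5 (−1.51, SE 0.70), and of the 5 subunits of the volume-regulated anion channel, through which cells release taurine, Lrrc8d (0.75, SE 0.41). Of 5 SLC6 carriers of osmolytes and amino acids it was Slc6a12, a betaine and GABA carrier, with 0.874 to 10.0 CPM (median 2.37) in TauT+/+ and 4.14 to 47.7 CPM (median 14.9) in TauT-/- libraries and a log2 fold change of 1.90 (SE 0.67, edgeR adjusted p = 0.113). In these lists DESeq2 called Got1 and Slc6a12 higher (adjusted p = 0.0386 and 0.0261) and Suox, the sulfite oxidase, and Slc1a5, a neutral amino acid carrier, lower (0.00489 and 0.0215), with edgeR log2 fold changes of −0.75 for Suox and −1.30 for Slc1a5, both named after their values were seen. With the macrophage list as a covariate, Slc7a11 had −0.56, Vnn3 −0.19 and Lrrc8d −0.42, against positive values without it, and Slc6a12 had 0.62.

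**Figure D5:**
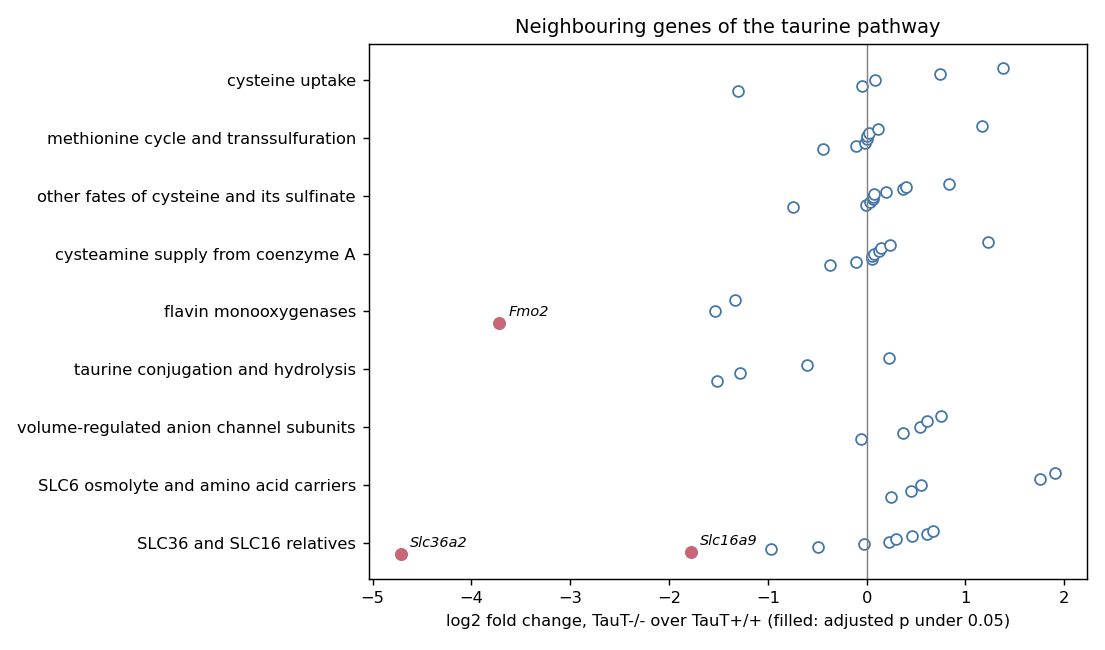
Log2 fold changes (TauT-/- over TauT+/+) of the 59 tested genes of the 9 lists around taurine transport and synthesis, 1 circle per gene. The 3 filled circles, Fmo2, Slc36a2 and Slc16a9, passed an edgeR adjusted p of 0.05, all on the lower side.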

How the data were processed

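Bulk RNA-sequencing of 15 MSC samples was analyzed from 1 table of gene counts. Per the study's methods, the authors amplified full-length cDNA primed by oligo-dT, trimmed reads with fastp 0.23.1, mapped them with STAR 2.7.9a to GRCm39 with GENCODE M31 and counted them by strand with featureCounts (Subread 2.0.1), and the deposited counts are whole reads per gene without normalization. Long-distance PCR without molecular identifiers means that read counts cover counting error only. Of the columns, 0 were left without a sample.

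Counts were normalized by TMM, filtered with filterByExpr and tested with edgeR 4.0.16 in R 4.3.3 over all 15 libraries, with sex label and genotype in the model and Benjamini-Hochberg adjustment over the 17204 genes tested. Differences between sex labels used 1 term per group. DESeq2 1.42.0 and limma 3.58.1 (voom with sample quality weights) were alternatives, as were other normalization, filters, covariates, a replicate block and reduced sets of libraries. The sex label was always used as given. Exact two-sided permutation tests of log2(CPM + 0.5) covered all 2450 splits within sex labels. On simulated counts for 16872 genes with 200 of them changed 4-fold, edgeR called 180 genes and recovered 173 of the changed ones (86.5%). The simulated libraries were drawn independently, without near-identical pairs, sex labels that go against the genes or shifts in marker lists. The recovery therefore checks the procedure and does not give the power in these 15 libraries. Positions and transcript lengths on GRCm39 came from the later GENCODE release M39, and promoters from RefSeq (GRCm38.p6). Other steps used Python 3.11.15.

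The 9 genes and the lists were chosen with earlier results of these data known. Named beside the 9 genes are, in each list, every gene called by edgeR and the one with the largest change, and the 5 genes most like Slc6a6 and the 2 most like each other tested gene by Pearson correlation of log2(CPM + 0.5). Of the marker lists, 9 endothelial genes summed to 11.2 to 27.9 CPM in TauT+/+ and 12.1 to 236 CPM in TauT-/- libraries, 6 osteoblast genes to 60.4 to 401 and 41.8 to 564 CPM, and 4 erythroid genes to at most 0.115 CPM in a library.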

Additional observations from a re-analysis of the deposited data

Results flagged for a closer look

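A sample far from the others of its group was sought in the 8 tested genes over the 3 groups of 4 libraries, 24 groups in all. Chance flags about 1 in 20 where values are normally distributed. The gaps were taken on CPM and not on a log scale, so that rate is not exact here. In 2 of the 24 groups the gap to the next library exceeded Dixon's 95% limit for 4 samples, taken as a share of the group's range. For Slc6a13, TauT-/- female 4 had 1.88 CPM while the other 3 libraries of the group had at most 0.0695 CPM, a gap of 0.988 of the range. For Fmo1, TauT-/- female 1 had 11.2 CPM while the other 3 had at most 1.20 CPM, a gap of 0.918 of the range. The latter library is the one nearly identical to TauT-/- male 1, which had 12.5 CPM.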

How the results depend on the processing

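The number of the 8 tested genes called lower, 0 with edgeR, was 1 (Cdo1) with at least 10 counts required in every library, where 6 of the 8 were tested and 200 of 12145 genes were lower, 1 (Cdo1) without the sex term, where 258 of 17204 were, 2 with voom (Slc6a6 and Cdo1) and 2 with DESeq2 (Cdo1 and Fmo1). The number called higher was 1 with DESeq2 (Slc6a13). Over the 15 fits that each left out 1 library, 0 to 2 were called lower and 0 higher, and the log2 fold change of Slc6a6 lay between −1.16 and −0.77. It was −1.27 with voom, past the threshold. Slc6a13 could be tested in 11 of the 15 fits, since it did not pass the filter without TauT-/- male 2, 3 or 4 or female 4. Of the 8 tested genes, the number whose genotype difference differed between sex labels stayed at 0 with DESeq2, which called 3 of all genes, and with either near-identical library of each pair left out. The direction reversed for Slc36a1 with 12 libraries (0.064, without TauT+/+ male 1, TauT-/- male 1 and TauT+/+ female 3), for Slc16a6 (−0.23), Csad (0.0088) and Ado (−0.061) with the macrophage covariate, and for Ado in male-labelled libraries alone (−0.037), none of them past the threshold with any fit. The cause was not tested. The covariate fit called 0 of all genes, as did each sex label alone and the 12 libraries. The fits of 13 libraries called 0 lower and 2 higher without TauT+/+ and TauT-/- male 1, and 0 and 7 without TauT+/+ and TauT-/- female 1, against 129 and 94 with all 15. The 15 fits without 1 library called 4 to 779 genes lower and 8 to 476 higher.

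The replicate number was entered as a block within the sex label. Correlations of same-numbered samples' deviations were 0.28, 0.22, 0.62 and 0.19 under the male and 0.28, 0.07 and −0.04 under the female label, not all over 0.1, and 11 of the 14 libraries with a same-numbered partner correlated best with it, a hint from the data. The labels give no shared source, so the number was not taken as a pairing. With the replicate block 1 of the 8 tested genes was called lower, Cdo1 (−1.96, edgeR adjusted p = 0.0417), and over all genes 177 were lower and 82 higher. In the exact two-sided permutation tests of the 9 genes, unadjusted, p was 0.00204 for Cdo1, 0.0294 for Slc6a6, 0.0302 for Fmo1 and 0.0735 for Slc6a13, and with a pseudocount of 0.1 CPM no gene changed its side of 0.05. The splits treated all libraries as independent and the sex labels as right. With near-identical pairs of the same genotype and 3 libraries against their sex label, these p-values can be too small.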
